A study of Homo sapiens with 6 samples.

Results

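Polycomb repressive complex 1 (PRC1) was described here through the 10 genes of its ubiquitin ligase core: BMI1 and its paralogues PCGF1, PCGF2, PCGF3, PCGF5 and PCGF6, the RING-finger partners RING1 and RNF2, and the paralogous subunits RYBP and YAF2. They were taken by symbol from a table of 22826 symbols, and all 10 were present. The cells were IMR-32, an established human neuroblastoma line with amplified MYCN, labelled as wild type in every library. After 24 h in culture, wells received for another 24 h either the solvent DMSO (3 libraries) or 25 nM PTC-028 (3 libraries), the compound used in the study to inhibit BMI1. Poly(A)-selected RNA was sequenced, and the authors gave each gene's level as TPM, a relative abundance of transcripts that accounts for their length. The labels do not say whether the libraries of a group came from separate cultures, and the spread on which every p-value rests may therefore be technical.

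PRC1 places a single ubiquitin on histone H2A and helps to keep developmental genes silent. Each complex pairs RING1 or RNF2, which hold the catalytic RING finger, with 1 PCGF protein, and the PCGF protein decides which other subunits join. BMI1 and PCGF2 build the canonical complexes, which carry a CBX protein that reads the methyl mark set by Polycomb complex 2. PCGF1 builds a complex with KDM2B and BCOR (PRC1.1), PCGF3 and PCGF5 build complexes with AUTS2 and casein kinase (PRC1.3 and PRC1.5), and PCGF6 builds one with MGA and E2F6 (PRC1.6). In these variant complexes RYBP or YAF2 takes the place of the CBX protein and raises the activity of the ligase.

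The BMI1 gene (chromosome 10, 22321211 to 22331484, plus strand, GRCh38) lies just downstream of COMMD3, and a read-through gene, COMMD3-BMI1 (22316388 to 22329542), joins the exons of both. BMI1 exons can therefore be transcribed from either start. The sequences around the RefSeq starts of BMI1 and COMMD3 are shown. The COMMD3 window holds the annotated start of COMMD3-BMI1 (22316388). The BMI1 window ends before the BMI1 gene start given above (22321211), so no BMI1 transcript of that annotation begins in it. Each window runs from 250 bases before to 50 bases after the RefSeq start (GRCh38.p14, plus strand), and for BMI1 the upstream one of its 2 RefSeq windows is shown. Capitals mark the palindrome CACGTG, an E-box that proteins of the MYC family can bind, searched on both strands.
BMI1 start, chr10:22320849-22321148: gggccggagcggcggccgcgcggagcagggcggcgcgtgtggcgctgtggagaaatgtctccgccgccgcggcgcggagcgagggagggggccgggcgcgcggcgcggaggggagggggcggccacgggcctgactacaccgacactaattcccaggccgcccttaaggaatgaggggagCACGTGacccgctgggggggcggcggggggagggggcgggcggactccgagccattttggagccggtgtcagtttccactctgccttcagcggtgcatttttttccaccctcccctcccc
COMMD3 start, chr10:22316138-22316437: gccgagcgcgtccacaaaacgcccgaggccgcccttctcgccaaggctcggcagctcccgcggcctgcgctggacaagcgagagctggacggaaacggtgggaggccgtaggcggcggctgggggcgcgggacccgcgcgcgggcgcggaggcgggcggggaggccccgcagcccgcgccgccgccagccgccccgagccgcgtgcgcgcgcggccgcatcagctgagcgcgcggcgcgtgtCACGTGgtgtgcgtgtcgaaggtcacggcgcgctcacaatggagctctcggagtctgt
The E-box began 70 bases before the RefSeq BMI1 start (position -70) and 8 bases before the RefSeq COMMD3 start (position -8). RefSeq windows were found for all 10 genes, 14 windows in all, and 2 of the 14 held CACGTG, the BMI1 window shown above and the YAF2 window (position -131). Of all 35116 RefSeq promoter windows of this length, 7.26% held it. An E2F motif, TTT and CGC joined by GG, CC, GC or CG, read on both strands, was in 0 of the 14 windows and in 3.31% of all windows. These are matches of letters and not measured binding.

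The levels of IMR-32 markers and of CDKN1A bear on how far the groups can be compared. All 11 neuroblastoma markers had a mean of at least 1 TPM and summed to between 2852 and 2977 TPM with DMSO and between 3136 and 3201 TPM with PTC-028. The summed level was between 29.8 and 41.0 TPM for 7 mesenchymal or Schwann-like markers, between 3.25 and 5.85 TPM for 3 blood markers with values, mostly PTPRC, and between 0.411 and 1.78 TPM for 4 epithelial markers. The neuroblastoma sums did not overlap between groups, and their part in the results was not tested. CDKN1A, a p53 target that encodes the cell cycle inhibitor p21, rose 3.73-fold (limma adjusted p = 7.61e-06). Pearson correlations across tested symbols were 0.985 to 0.989 within groups and 0.983 to 0.987 between groups. On the first principal component (31.7% of the variance) DMSO replicate 3 stood farthest out at -22, against -14.2 and -4.2 for the other DMSO libraries and 12 to 15.8 for PTC-028, and this library held the lowest DMSO value for 6 of the 10 genes. PTC-028 replicate 3 held the lowest PTC-028 value for 7 of the 10.

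In solvent-treated cells PCGF1 was by far the most abundant of the 10 transcripts and PCGF5 the least. PCGF1 (chromosome 2, 74505043 to 74508580, minus strand), the PCGF subunit of PRC1.1, was at 123 ± 13.6 TPM (SD, n = 3), and its level over all 6 libraries was above that of 92.4% of tested symbols. Next came RING1 at 57.1 ± 3.31 TPM, PCGF3 at 53.0 ± 0.511, PCGF2 at 49.3 ± 0.237 and BMI1 at 47.9 ± 3.97 TPM. The library values of PCGF2 and BMI1 overlapped, so in DMSO these 2 paralogues of the canonical complexes did not differ beyond their spread. In PTC-028 PCGF2 stood above BMI1 without overlap. The place of BMI1 depends on a read-through row described later, with which it would stand at 82.3 TPM in DMSO, second of the 10. Below a gap stood RNF2 at 28 ± 4.79 TPM, YAF2 at 25.8 ± 5.4 and PCGF6 at 21.2 ± 0.648 TPM, each overlapping its neighbour in this order. RYBP followed at 15.8 ± 3.66 TPM and PCGF5 at 3.38 ± 0.361 TPM, with a level over all 6 libraries above that of 16.3% of tested symbols. In PTC-028 the order was the same except that PCGF3 stood above RING1 and RYBP above PCGF6, and there the values of RYBP and PCGF6, and those of RING1 and PCGF2, overlapped.

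**Figure D1:**
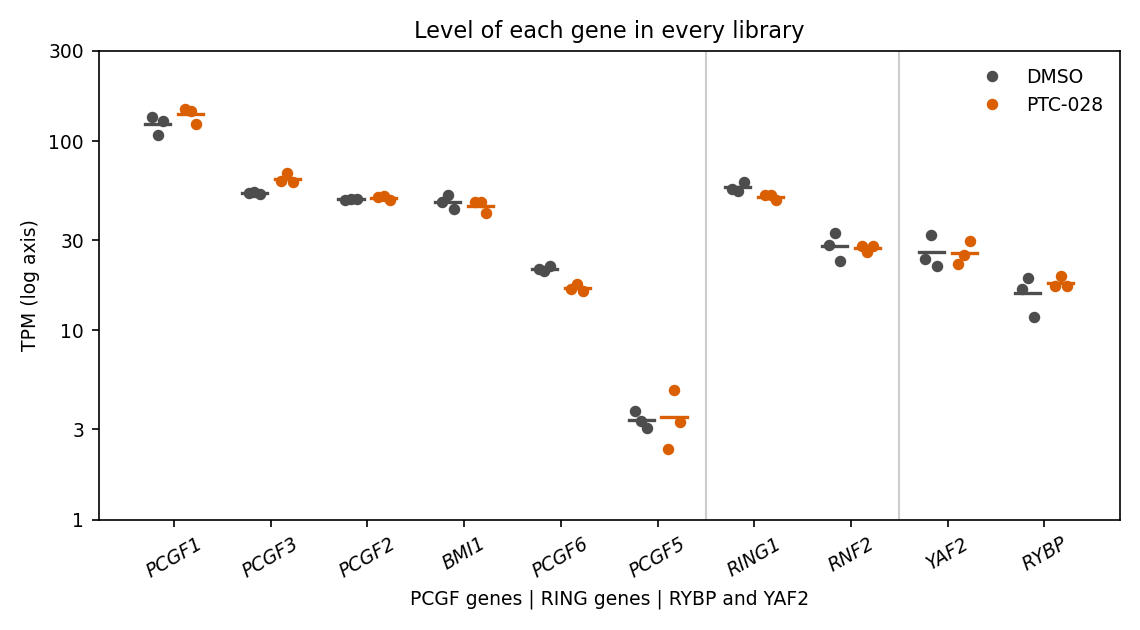
TPM of each gene (log axis) in the 3 DMSO and 3 PTC-028 libraries, with a bar at each group mean. PCGF1 lies above 100 TPM in all 6 libraries and PCGF5 below 5 TPM, and the groups are apart for PCGF3, PCGF6 and RING1.

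None of the 10 genes passed the test of PTC-028 against DMSO. In limma on log2(TPM + 1) with Benjamini-Hochberg adjustment over 13552 symbols, 0 of the 10 had an adjusted p under 0.05, against 2.1% of all tested symbols (1.01% higher and 1.09% lower in PTC-028). At an unadjusted p under 0.05 there were 3 of the 10, against 17.7% of all. The groups did not overlap for 3 of the 10, 1 higher and 2 lower in PTC-028, against 24.3% of all tested symbols (13.6% higher and 10.7% lower). These shares lie close to the background. The median log2 fold change of the 10 was 0.001, beside 0.03 over all tested symbols. Since these are bulk libraries, fewer cells with a transcript and less of it per cell cannot be told apart.

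The transcript of BMI1, whose protein the compound is aimed at, had 47.9, 51.8 and 43.9 TPM in the DMSO libraries. In the PTC-028 libraries it had 47.8, 47.4 and 41.4 TPM. The groups overlapped, with the lowest value in PTC-028 replicate 3 and the highest in DMSO replicate 2. The log2 fold change was -0.07 ± 0.09 (SE, n = 3 each; limma adjusted p = 0.713), and its 95% interval of 0.831-fold to 1.09-fold bounds the change of the BMI1 row at this time and dose. Without any 1 library the log2 fold change lay between -0.13 and -0.01. These values are of RNA, and the BMI1 protein was not measured in these libraries. PCGF2 (also called MEL18), the other PCGF subunit of canonical PRC1, had 49.0, 49.4 and 49.5 TPM with DMSO and 50.9, 51.1 and 48.8 TPM with PTC-028. It was the steadiest of the 10, with a log2 fold change of 0.03 and a 95% interval from -0.10 to 0.16 (limma adjusted p = 0.840). The sign turned to -0.01 under median ratio scaling. Its row carried an identifier that is not on the primary assembly of GENCODE 29, where PCGF2 lies on chromosome 17 (38733897 to 38749817).

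Part of the signal at the BMI1 locus was assigned to the read-through gene. The COMMD3-BMI1 row had 27.9, 37.7 and 37.5 TPM with DMSO and 26.4, 29.6 and 30.7 TPM with PTC-028. The groups overlapped, since DMSO replicate 1 lay within the range of PTC-028, and the log2 fold change was -0.23 ± 0.12 (SE; limma adjusted p = 0.367). Of the 1904 exonic bases annotated for COMMD3-BMI1, 1000 (52.5%) are also annotated for BMI1 and 904 (47.5%) for COMMD3, which leaves 0 of its own. Of the 4283 exonic bases annotated for BMI1, 23.3% are shared with COMMD3-BMI1. The division of reads within shared bases therefore rests on the quantifier, which is not given in the sources used here. COMMD3 itself, which encodes a protein of endosomal sorting, was at 33.5 ± 2.46 TPM with DMSO and 32.4 ± 2.00 TPM with PTC-028 (SD, n = 3 each).

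**Figure D2:**
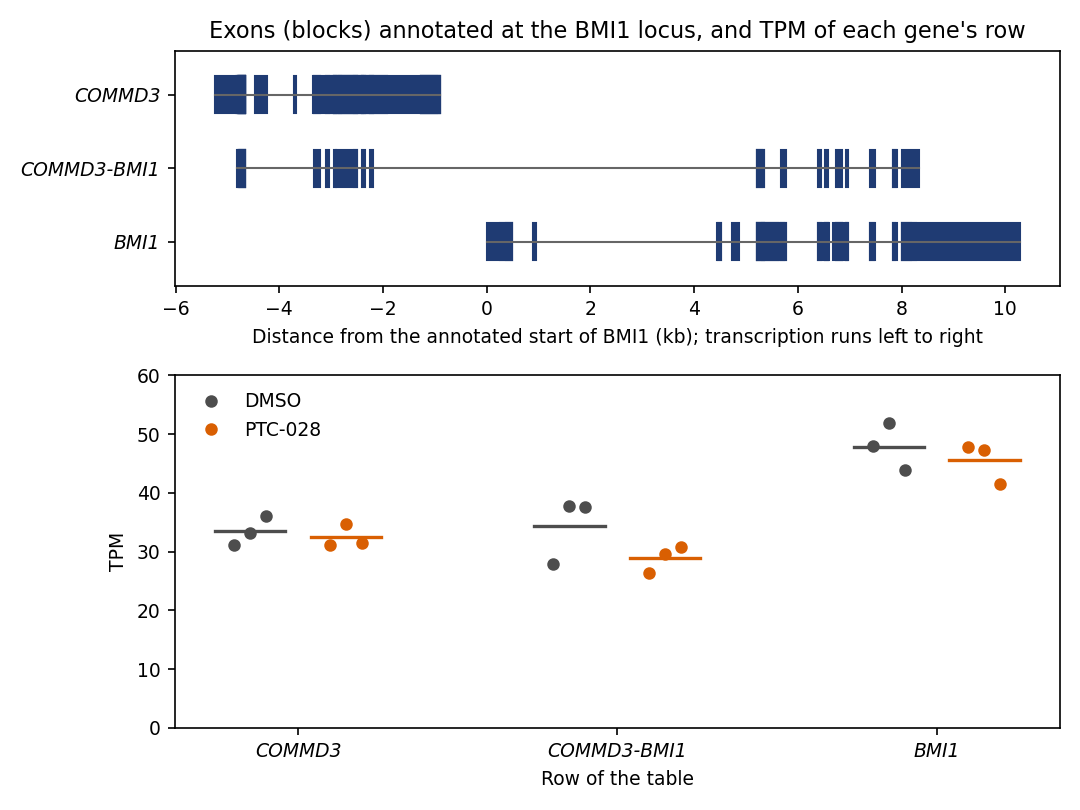
Upper panel: annotated exons (blocks, all transcripts merged) of COMMD3, COMMD3-BMI1 and BMI1, by distance in kb from the annotated start of BMI1. Lower panel: TPM of the 3 rows in each library with group means as bars; the values of the groups overlap in all 3 rows.

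The read-through row made up 41.7% ± 4.65 of the summed BMI1 and COMMD3-BMI1 TPM with DMSO and 38.9% ± 3.51 in PTC-028 (SD, n = 3 each). Added together, the 2 rows had 75.8, 89.6 and 81.4 TPM with DMSO and 74.2, 77.0 and 72.2 TPM with PTC-028. The sums overlapped only through PTC-028 replicate 2 and DMSO replicate 1. With the rows added, an alternative chosen after seeing the data, the log2 fold change of BMI1 was -0.14 (limma adjusted p = 0.348). By profile over the 6 libraries, the symbols nearest to BMI1 among 8799 with a mean of at least 10 TPM were NRSN1, GNA11 and BABAM2. Their root mean square differences from BMI1 in centred log2(TPM + 1) were 0.0144, 0.0196 and 0.0331, where the spread of BMI1 itself was 0.1. By the same measure PCGF2 ranked 898 and COMMD3-BMI1 ranked 7580, at 0.0957 and 0.212.

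Among the PCGF paralogues of the variant complexes, PCGF3 lay higher and PCGF6 lower in every PTC-028 library, and neither passed the test. PCGF3 (chromosome 4, 705748 to 770640, plus strand), a subunit of PRC1.3, had 53.1, 53.5 and 52.5 TPM with DMSO and 61.2, 67.7 and 60.6 TPM with PTC-028. The groups were apart, with PTC-028 replicate 2 the highest, and the mean ratio was 1.19 (log2 fold change 0.25 ± 0.06, SE, n = 3 each; limma adjusted p = 0.104). PCGF6 (chromosome 10, 103302796 to 103351144, minus strand), the PCGF subunit of PRC1.6, had 21.0, 20.6 and 21.9 TPM with DMSO and 16.5, 17.5 and 16.2 TPM with PTC-028. Its groups were also apart, at a mean ratio of 0.791 (log2 fold change -0.32 ± 0.08, SE; limma adjusted p = 0.0853). The 95% intervals, unadjusted for the number of symbols, ran from 0.10 to 0.39 for PCGF3 and from -0.50 to -0.15 for PCGF6 on the log2 scale. Without any 1 library the log2 fold change stayed between 0.20 and 0.27 for PCGF3 and between -0.35 and -0.30 for PCGF6.

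PCGF1 had 133, 107 and 128 TPM with DMSO and 148, 144 and 123 TPM with PTC-028. DMSO replicate 2 was the lowest and PTC-028 replicate 3 fell within the DMSO range, so the groups overlapped (log2 fold change 0.17 ± 0.10, SE; limma adjusted p = 0.399). Without DMSO replicate 2 the log2 fold change was 0.08. PCGF5 (chromosome 10, 91163012 to 91284331, plus strand), the close paralogue of PCGF3, had 3.76, 3.34 and 3.04 TPM with DMSO and 2.36, 4.84 and 3.26 TPM with PTC-028. Its lowest and highest values both came from PTC-028 libraries. The log2 fold change was 0.002 ± 0.21 (SE; limma adjusted p = 0.998), with a 95% interval of 0.721-fold to 1.39-fold of TPM + 1. Changes within that interval are compatible with the values. At this low level the same limits are wider in TPM itself. The sign of the PCGF5 log2 fold change turned in 6 of 14 alternatives, scaling included.

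Relative abundance puts the PCGF transcripts on 1 scale, because TPM is per length. These are shares of RNA, and the shares of the proteins or of the complexes were not measured. In DMSO, PCGF1 made up 41.2% ± 3.18 of the summed PCGF TPM, PCGF3 17.8% ± 0.768, PCGF2 16.6% ± 0.672, BMI1 16.1% ± 1.78, PCGF6 7.12% ± 0.276 and PCGF5 1.14% ± 0.104 (SD, n = 3). The transcripts of BMI1 and PCGF2, the PCGF subunits of canonical PRC1, together made up 32.7% ± 2.31 when the read-through row was not counted. With that row added to BMI1, an alternative chosen after seeing the data, BMI1 alone made up 24.8% and ranked second to PCGF1. The summed PCGF level was 308, 286 and 298 TPM with DMSO and 326, 333 and 293 TPM with PTC-028, which overlapped.

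**Figure D3:**
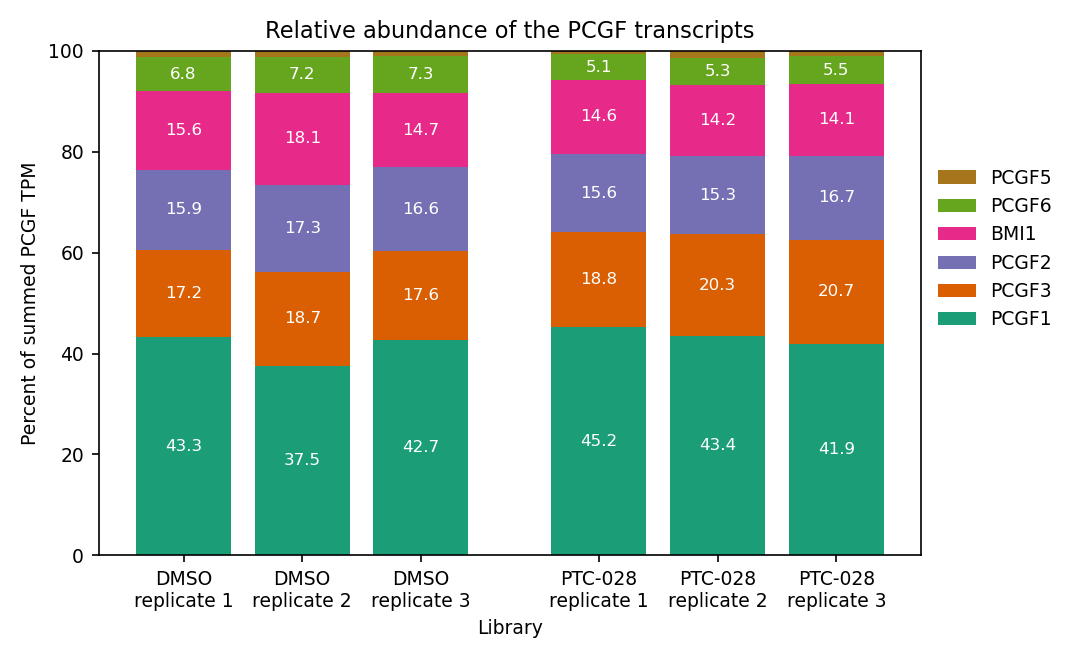
Percent of the summed PCGF TPM taken by each of the 6 PCGF genes in the 3 DMSO and 3 PTC-028 libraries (stacked to 100%). PCGF1 is the largest share in each library, and the PCGF6 share is between 6.81% and 7.34% in DMSO and between 5.05% and 5.54% in PTC-028.

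Between treatments the shares of PCGF3, PCGF6 and BMI1 were apart, and PCGF1 had the largest share in each library. The PCGF3 share was 17.2%, 18.7% and 17.6% in DMSO and 18.8%, 20.3% and 20.7% in PTC-028, so the lowest PTC-028 value lay just above the highest DMSO value. PCGF6 had 6.81%, 7.22% and 7.34% in DMSO and 5.05%, 5.27% and 5.54% in PTC-028, clearly apart. For BMI1 the share was 15.6%, 18.1% and 14.7% in DMSO and 14.6%, 14.2% and 14.1% in PTC-028. These groups nearly touched, at DMSO replicate 3 and PTC-028 replicate 1. The shares of a library depend on each other through their common sum, and the TPM of BMI1 itself overlapped between groups.

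Each of these 3 shares had an exact two-sided permutation p of 0.1, the smallest that 3 libraries against 3 can give, and 0.24 after Benjamini-Hochberg adjustment over the 12 shares, sums and ratios compared. The 12 include the ratio of PCGF3 to PCGF6, whose genes were paired with their values known. It is 1 of the 5 measures at that smallest permutation p, on which the adjusted value rests. With this number of libraries no share could have passed 0.05. The mean differences were 2.08 percentage points for PCGF3, -1.84 for PCGF6 and -1.79 for BMI1. Without DMSO replicate 2 the BMI1 difference was -0.793, while that of PCGF3 lay between 1.7 and 2.66 and that of PCGF6 between -1.99 and -1.72 without any 1 library. With the read-through row added to BMI1, the BMI1 share was 24.8% ± 2.6 in DMSO and 21.5% ± 0.673 in PTC-028 (SD, n = 3 each), again without overlap, and the difference was -3.31 percentage points. The joint share of BMI1 and PCGF2 was 32.7% in DMSO and 30.2% in PTC-028, with the same exact permutation p of 0.1, and its difference of -2.52 percentage points was -1.19 without DMSO replicate 2. PCGF1 and PCGF2 overlapped between groups, at differences of 2.32 and -0.733 percentage points (exact permutation p = 0.4 and 0.3). For PCGF1 the difference was 0.497 without DMSO replicate 2.

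PCGF3 and PCGF6 had the highest and the lowest log2 fold change of the PCGF family and were paired with their values known, so their ratio is given as a description only. PCGF3 was 2.50 times as abundant as PCGF6 in DMSO and 3.77 times in PTC-028. The log2 ratio was 1.34, 1.37 and 1.26 in DMSO and 1.89, 1.95 and 1.90 in PTC-028. The group means differed by 0.589. For BMI1 against PCGF2 the log2 ratio was -0.05 ± 0.122 in DMSO and -0.14 ± 0.08 in PTC-028 (SD, n = 3 each), and the groups overlapped (exact permutation p = 0.4).

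Of the RING partners, RING1 was the more abundant in all 6 libraries, and neither passed the test. RING1 (also RING1A) had 55.8, 54.7 and 60.9 TPM with DMSO and 52.0, 51.9 and 48.6 TPM with PTC-028. All PTC-028 values lay below all DMSO values, at a mean ratio of 0.890 (log2 fold change -0.16 ± 0.07, SE, n = 3 each; limma adjusted p = 0.252). The RING1 row carried an identifier that is not on the primary assembly, where RING1 lies in the MHC region of chromosome 6 (33208495 to 33212722), a region with many alternative haplotypes.

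RNF2 (also RING1B; chromosome 1, 185045364 to 185102608, plus strand), the main H2A ligase of the pair in mouse embryonic stem cells, had 28.2, 32.7 and 23.2 TPM with DMSO and 27.8, 25.8 and 27.9 TPM with PTC-028. The DMSO libraries enclosed the PTC-028 libraries (log2 fold change -0.03 ± 0.12, SE; limma adjusted p = 0.917), and the 95% interval ran from 0.809-fold to 1.18-fold. RNF2 stood at 0.487 of RING1 in DMSO and 0.535 in PTC-028, and the log2 ratio overlapped between groups (exact permutation p = 0.7). Summed, RING1 and RNF2 came to 84.0, 87.5 and 84.0 TPM with DMSO and 79.8, 77.7 and 76.5 TPM with PTC-028, without overlap. The summed PCGF level was 3.5 ± 0.204 times this sum in DMSO and 4.07 ± 0.227 times in PTC-028 (SD, n = 3 each), also without overlap. Both are descriptions that were not in the plan and were not tested.

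RYBP and YAF2, which occupy the same site on the RING proteins, were both present, with YAF2 the more abundant. YAF2 (chromosome 12, 42157104 to 42238349, minus strand) had 23.7, 32.0 and 21.8 TPM with DMSO and 22.5, 24.9 and 29.6 TPM with PTC-028. The groups overlapped nearly fully (log2 fold change 0.001 ± 0.15, SE; limma adjusted p = 0.998), and the sign turned in 6 of 15 alternatives, both other scalings included. RYBP (chromosome 3, 72371825 to 72446621, minus strand) had 16.6, 18.9 and 11.7 TPM with DMSO and 17.1, 19.3 and 17.1 TPM with PTC-028 as the sum of its 2 rows. Apart from DMSO replicate 3 the libraries lay close together, and the log2 fold change was 0.19 ± 0.16 (SE; limma adjusted p = 0.569). Without DMSO replicate 3 it was 0.005.

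RYBP was the 1 gene of the 10 with more than 1 row, and GENCODE 29 tags its primary locus as an error of the reference genome. The primary-assembly row had 11, 10.9 and 9.96 TPM with DMSO and 10.5, 11.9 and 12.2 TPM with PTC-028. The second row, whose identifier is not on the primary assembly, had 5.62, 8.03 and 1.79 TPM with DMSO and 6.64, 7.47 and 4.89 TPM with PTC-028. The primary row was steady, whereas the second row took between 15.2% and 42.5% of RYBP, lowest in DMSO replicate 3. RYBP stood at 0.607 of YAF2 in DMSO and 0.698 in PTC-028, and the log2 ratio overlapped between groups (exact permutation p = 0.3).

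The subunits that join this core were taken from 5 lists of 40 genes in all, of which 39 were tested. In limma 0 rose, 1 fell and 38 did not pass, and 8 of the 39 had an unadjusted p under 0.05, against 17.7% of all tested symbols. The background of 2.1% corresponds to fewer than 1 call in a list of that size. The gene that fell was TFDP1, which encodes DP1, a dimerisation partner of E2F proteins and a subunit of PRC1.6. It had 147, 155 and 150 TPM with DMSO and 119, 118 and 121 TPM with PTC-028. The groups were well apart (log2 fold change -0.33 ± 0.05, SE, n = 3 each; limma adjusted p = 0.012). The call was lost without DMSO replicate 1, without any 1 PTC-028 library, with eBayes without a trend and with the replicate number as a block, with adjusted p up to 0.0769.

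**Figure D4:**
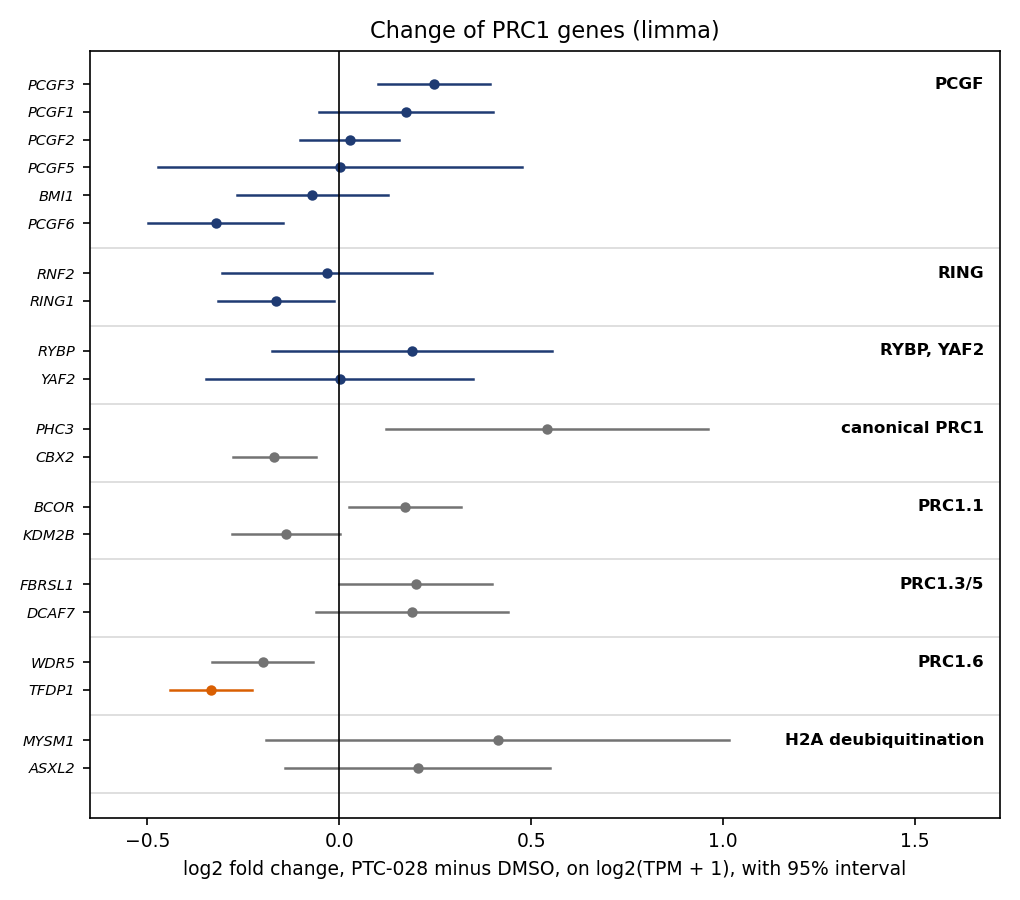
Log2 fold change with 95% interval (unadjusted) from limma for the 10 core genes (blue) and the 2 genes with the smallest p of each of 5 lists (grey, orange where the adjusted p is under 0.05). TFDP1 at -0.33 is the 1 gene that passed.

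Of the other 9 genes listed for PRC1.6, none passed, and its median log2 fold change was -0.07. WDR5, a histone-binding adaptor, was at 65.3 ± 1.97 TPM with DMSO and 56.8 ± 1.82 TPM with PTC-028 (SD, n = 3 each; limma adjusted p = 0.134). The groups were apart for 4 of the 10 genes of the list, all lower in PTC-028, against 24.3% of all tested symbols in either direction and 10.7% in that direction. For CBX3, 1 of these 4, the groups nearly touched, with 355.931 TPM in PTC-028 replicate 2 and 355.951 TPM in DMSO replicate 3. The canonical PRC1 list also had 4 genes apart, but 2 were higher and 2 lower. Over all 39 genes 25.6% were apart, near the background. In the PRC1.6 list 4 genes had a log2 fold change above 0 and 6 below. The groups overlapped for L3MBTL2, MGA and E2F6 of this list, at mean ratios of 0.93, 1.19 and 0.969. PCGF6, which defines this complex and is counted among the core genes, lay lower without passing, as given above (limma adjusted p = 0.0853).

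None of the 10 tested canonical PRC1 genes passed in limma. An unadjusted p under 0.05 was reached by 3 of the 10, against 17.7% of all tested symbols. The groups were apart for 4 of the 10, 2 higher and 2 lower, against 24.3% of all. Their median log2 fold change was 0.03. CBX2, a reader of the Polycomb complex 2 mark, had 151, 154 and 154 TPM with DMSO and 139, 131 and 138 TPM with PTC-028. Its groups were apart (log2 fold change -0.17; limma adjusted p = 0.127). CBX8 was at 47.0 ± 1.46 TPM in DMSO and CBX6 at 26.5 ± 0.653 TPM (SD, n = 3), while CBX7, at 0.774 ± 0.131 TPM, did not reach the filter for testing. PHC3, a polyhomeotic subunit that links complexes into larger assemblies, had 6.53, 8.48 and 4.64 TPM with DMSO and 10.4, 9.91 and 8.94 TPM with PTC-028. Its groups were apart by little (log2 fold change 0.54 ± 0.18, SE; limma adjusted p = 0.183).

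In the PRC1.1 list limma called none of 5 genes, against 2.1% of all tested symbols. An unadjusted p under 0.05 was reached by 1 of the 5, against 17.7% of all. BCOR, the corepressor that binds PCGF1, was at 57.9 ± 2.02 TPM with DMSO and 65.4 ± 3.51 TPM with PTC-028, and KDM2B, which brings the complex to CpG islands, at 55.4 ± 1.65 and 50.2 ± 2.28 TPM (SD, n = 3 each). Their adjusted p in limma were 0.218 and 0.289. The groups did not overlap for these 2 of the 5 genes, in opposite directions, against 24.3% of all tested symbols. All 7 genes listed for PRC1.3 and PRC1.5 had a log2 fold change above 0, as did 7801 of the 13552 tested symbols. The median of the 7 was 0.12, beside 0.03 over all tested symbols. An unadjusted p under 0.05 was reached by 1 of the 7, against 17.7% of all. None passed, against 2.1% of all. The groups overlapped for all 7, while they did not overlap for 24.3% of all. FBRSL1 and DCAF7 had the smallest p of that list, at log2 fold changes of 0.20 and 0.19 (limma adjusted p = 0.281 and 0.4). Without DMSO replicate 1 the FBRSL1 value was 0.10, and without DMSO replicate 3 the DCAF7 value was 0.07.

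Removal of ubiquitin from H2A is the opposing reaction, carried out by BAP1 with an ASXL partner and by other deubiquitinases. None of 7 such genes passed in limma, against 2.1% of all tested symbols. An unadjusted p under 0.05 was reached by 0 of the 7, against 17.7% of all. The groups overlapped for all 7, while they did not overlap for 24.3% of all. The deubiquitinase gene MYSM1 was at 15.1 ± 4.21 TPM with DMSO and 20.9 ± 8.26 TPM with PTC-028 (SD, n = 3 each), with 30.4 TPM with PTC-028 replicate 2 and at most 19.9 TPM in any other library. ASXL2 was at 7.31 ± 1.69 and 8.45 ± 0.125 TPM (limma adjusted p = 0.452 for MYSM1 and 0.518 for ASXL2).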

How the data were processed

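The authors deposited 1 table of TPM values with 23555 rows, 1 column per library and none pooled, and the values were used as deposited. Per the submitters' processing notes GRCh38 was the build used. Which aligner, quantifier and annotation were used, and whether strand was used, is not given in the sources used here. Depth is unknown, since TPM does not hold it, and no counting interval is given. The columns summed to between 999990 and 999999, and 13311 to 13723 symbols per library reached 1 TPM.

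Rows sharing a symbol were summed, except 29 rows whose symbols a spreadsheet had turned into dates, which gave 22826 symbols. Symbols with at least 1 TPM in at least 3 libraries were tested (13552) on log2(TPM + 1) with limma 3.58.1 (R 4.3.3), with no covariate beside treatment, an eBayes trend, and Benjamini-Hochberg adjustment with a threshold of 0.05. Log2 fold changes, and the intervals given as folds, are of TPM + 1, which understates changes of low genes. Shares and ratios were compared by exact permutation (scipy 1.17.1). The procedure was tested on simulated data. Positions are from GENCODE 29 (GRCh38) by identifier, and promoters from RefSeq (GRCh38.p14). The genes, lists and tests were chosen with earlier results of these data known. The text names the 10 core genes, COMMD3, same-strand overlapping genes that have a row, CDKN1A, and the nearest 3 profiles to BMI1. From each list it names up to 4 genes that passed or the 2 with the smallest p. The levels of CBX3, CBX6, CBX7 and CBX8, and the mean ratios of L3MBTL2, MGA and E2F6, were added after their values were seen.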

Additional observations from a re-analysis of the deposited data

How the results depend on the processing

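None of the 10 core genes passed in any of 15 alternatives, of which a minimum of 5 TPM left PCGF5 untested. The direction held in every alternative for 6 of the 10. It turned for PCGF2 under median ratio scaling (-0.0104). It turned for PCGF5 with a pseudocount of 0.1 (-0.00895), median ratio scaling (-0.0279), quantile normalisation (-0.0761), and when any of DMSO replicates 2 and 3 or PTC-028 replicate 2 was left out (range without 1 library -0.21 to 0.19). For YAF2 it turned with a pseudocount of 5 (-0.000298), median ratio scaling (-0.0352), quantile normalisation (-0.0317), and when any of DMSO replicates 1 and 3 or PTC-028 replicate 3 was left out (range -0.11 to 0.16). For RNF2 it turned without DMSO replicate 2 or PTC-028 replicate 2 (range -0.158 to 0.0833). The difference in the RNF2 to RING1 log2 ratio lay between -0.0422 and 0.285 without 1 library, and that in the PCGF5 share between -0.217 and 0.148 percentage points. The cause was not tested.

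Over all symbols, 285 passed, against 140 without a filter on low values, 137 with eBayes without a trend and 80 to 250 without 1 library. Of the 39 other tested genes 1 passed, against 0 with eBayes without a trend and 0 to 1 without 1 library. With the replicate number as a block 99 of all symbols, 0 of the other genes and 0 of the core genes passed. Same-numbered libraries did not deviate together (r of 0.053, -0.015 and -0.117), so the numbers are not taken as pairs. Not every library deviated most like its own number. Precision was lowest for PCGF5, which had the lowest level and the widest interval of the 10.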
